A study of Mus musculus with 2 samples.

Results

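The cells described here are the mitotic tumour cells of a mouse model of small cell lung cancer, a neuroendocrine lung tumour, in 1 single-cell library from cisplatin-treated animals and 1 from vehicle-treated animals. A barcode was kept with at least 500 detected genes, at most 10% of its unique molecular identifiers (UMIs, 1 per captured RNA molecule) from mitochondrial genes, and fewer than 5 UMIs summed over Hhex, Isl1, Hoxb8, Sfrp5 and Gfra4. A kept cell was taken as mitotic when 10 genes, Mki67, Top2a, Cdk1, Ube2c, Birc5, Tpx2, Nusap1, Cenpf, Ccnb2 and Cdc20, together held at least 15 of every 10000 of its UMIs. By this rule 1021 of the 4254 barcodes of the cisplatin library and 785 of the 3726 barcodes of the vehicle library were mitotic, 1806 of 7980 in all. The cells were thus chosen by the measured UMI counts of these 10 genes, so the share of mitotic cells and the levels of the 10 genes are given as a description. Mitotic here names cells past the rule, which can include cells in S phase or G2 and not only cells in mitosis.

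Both groups were lung tumours of CGRPCreER/+ mice that carried floxed alleles, among them Rbf/f and P53f/f, and the reporter Rosa26mTmG, with strain given as mixed. The floxed alleles, which include the tumour suppressor genes Rb1 and Trp53, are therefore shared by the cisplatin and the vehicle cells. Cre acts from the CGRP (Calca) locus of neuroendocrine cells, and the mTmG reporter marks recombined cells with GFP, on which live cells were sorted before 10x capture. The treated mice received cisplatin, which crosslinks DNA, at 5 mg per kg of body weight every 4 days for 2 weeks, and the vehicle mice received saline on that schedule. One library protocol also names etoposide for the treated tumours. Age, sex and the number of animals per library are not given in the sources used here.

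Entry into mitosis is driven by the kinase CDK1 bound to cyclin A or cyclin B. Condensins and topoisomerase II shape the chromosomes, kinesins and spindle proteins build the spindle, and kinetochores attach chromosomes to it. Once all are attached, CDC20 activates the anaphase-promoting complex, a ubiquitin ligase that marks securin and cyclin B for destruction. RNAs of these proteins build up from S phase into G2 and M, with Top2a and Cenpf before Cdc20 and Ccnb1. Small cell lung cancers usually lack RB1 and p53 function and hold many dividing cells, and platinum drugs are their standard treatment.

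The cisplatin library held 28777462 UMIs with a median of 5925 per barcode, and the vehicle library 32519922 with a median of 8168. After the filters, 3470 cisplatin and 3654 vehicle cells were kept, and the 5 endocrine genes had dropped 748 cisplatin and 18 vehicle barcodes. The mitotic cells held 8485964 UMIs in cisplatin and 8688118 in vehicle. A mitotic cell had a median of 8010 UMIs in cisplatin and 10649 in vehicle, against 5001 and 7894 in the other kept cells. The libraries shared 23 barcodes, and 1 of these was mitotic in both. With 1 library per group there is no replicate and no test: treatment, library and animals cannot be told apart. All intervals are exact 95% intervals (Poisson for sums, Clopper-Pearson for shares) and cover counting error only.

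The 5 mitotic markers fixed for these cells (Mki67, Top2a, Cenpf, Ube2c and Cdc20) are all in the rule, so their level is no check of the label. They stood at 100 CPM (counts per gene scaled to the same total in each library) or more in the mitotic cells of both libraries. The rule did not use neuroendocrine markers, and at least 3 of 8 of them had a UMI in 1017 of 1021 cisplatin and 781 of 785 vehicle mitotic cells. At least 3 markers of 1 other lung or blood cell type were found in 2 cisplatin and 9 vehicle mitotic cells. The club cell set, 3 markers all with UMIs, summed to 543 CPM in cisplatin and 125 CPM in vehicle, and Scgb1a1 alone was at 519 and 115 CPM. Of the 4 red blood cell markers, Hba-a2 and Hbb-bt were at 0 in cisplatin, and the set summed to 0.589 CPM in cisplatin and 53.3 CPM in vehicle. Of the 6 T or NK cell markers, Cd3e, Cd3d and Nkg7 were at 0 in cisplatin and Nkg7 in vehicle, and the set summed to 2.12 and 23.5 CPM. Neutrophil markers summed to 1.89 CPM in cisplatin and 24.6 CPM in vehicle. The part of these other RNAs in the gene values below was not tested.

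The floxed genes Rb1 and Trp53 were measured in the mitotic cells of both libraries. Rb1, the retinoblastoma gene (chromosome 14), was at 16.9 CPM in cisplatin and 23.4 CPM in vehicle, and Trp53 at 67.9 and 62.7 CPM. A 3' tag outside the deleted part checks neither the deletion nor the labels.

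Mitotic cells made up a larger share of the kept cells in cisplatin, while the median mitotic rate of a mitotic cell was higher in vehicle. They were 29.4% of kept cisplatin cells (27.9 to 31.0%) and 21.5% of kept vehicle cells (20.2 to 22.9%). With every cell thinned to 3000 UMIs, which left out 330 cisplatin and 146 vehicle cells, the shares were 31.0% in cisplatin and 22.8% in vehicle. The summed 10 genes had a median of 53.6 per 10000 UMIs in a cisplatin mitotic cell (quartiles 38.4 and 70.9) and 69.5 in a vehicle mitotic cell (quartiles 35.0 and 98.3). The lower quartile and the highest cell (274 in cisplatin and 211 in vehicle) were higher in cisplatin. At 100 per 10000 or more stood 48 cisplatin cells, 1.38% of those kept (1.02 to 1.83%), and 186 vehicle cells, 5.09% (4.40 to 5.85%). The sort for GFP and the drop on endocrine genes set these shares in part. With the endocrine cells kept, the shares were 28.4% in cisplatin and 21.4% in vehicle.

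Around the threshold the cells thinned out in both libraries. Just outside it, from 12 up to 15 per 10000, were 57 cisplatin and 102 vehicle cells, and just inside, from 15 up to 18, were 30 and 51. Ccnb1, which encodes cyclin B1 and is not in the rule, was at 77.0 CPM in cisplatin and 39.3 CPM in vehicle just outside the threshold. Just inside it Ccnb1 was at 121 CPM in cisplatin and 47.5 CPM in vehicle, and at 100 per 10000 or more it was at 1235 and 736 CPM. Its level was thus higher in cisplatin in each of these 3 bands of the rule.

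**Figure D1:**
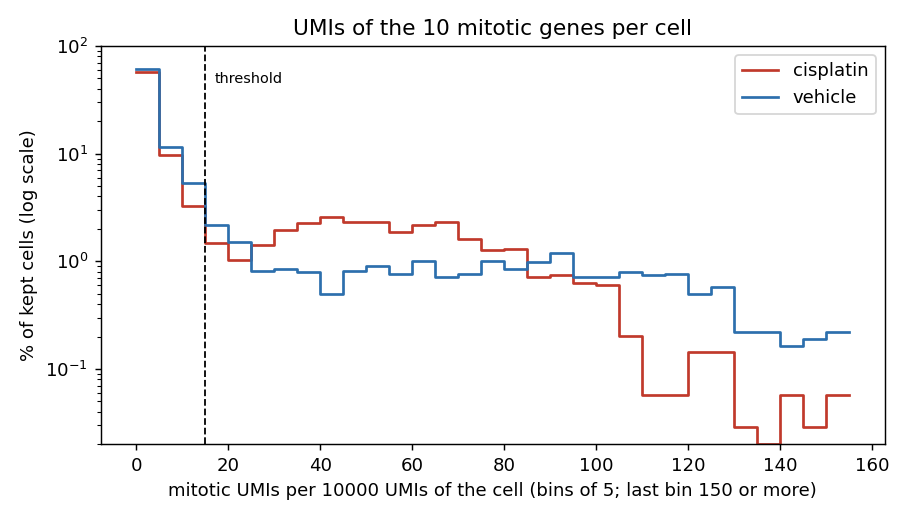
Share of kept cells (y axis, percent, log scale) in bins of 5 UMIs of the 10 mitotic genes per 10000 UMIs of the cell (x axis, last bin 150 or more), with the threshold of 15 dashed. The cisplatin line lies above the vehicle line in the middle of the mitotic range, and 1.38% of cisplatin against 5.09% of vehicle cells lie at 100 or more.

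Among the 10 genes of the rule, Mki67, Cenpf and Top2a were lower in cisplatin by more than 1.5-fold and the other 7 lay within 1.5-fold. Each level is the CPM of UMIs summed over a library's mitotic cells. A log2 ratio divides the cisplatin by the vehicle level, each with 1 CPM added. Mki67 (GRCm38 chromosome 7, 135689784 to 135716361), whose protein coats mitotic chromosomes, was at 223 CPM in cisplatin (214 to 234) and 697 CPM in vehicle (680 to 715), a log2 ratio of -1.64. Cenpf (chromosome 1, 189640606 to 189688086), a large kinetochore protein, was at 445 CPM in cisplatin (430 to 459) and 846 CPM in vehicle (827 to 866), a log2 ratio of -0.93. Top2a (chromosome 11, 98992943 to 99024189), the topoisomerase that untangles sister DNA, was at 802 CPM in cisplatin (783 to 821) and 1269 CPM in vehicle (1246 to 1293), a log2 ratio of -0.66. These 3 genes have the longest transcripts of the 10, at 10061, 11130 and 5221 bases. Mki67 gave 3.95% of the UMIs of the 10 genes in cisplatin and 9.76% in vehicle.

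The 2 rule genes that act with the anaphase-promoting complex lay near equal. Ube2c, which hands ubiquitin to the complex, was at 1301 CPM in cisplatin (1277 to 1326) and 1356 CPM in vehicle (1331 to 1380). Its activator Cdc20 was at 626 CPM in cisplatin (609 to 643) and 665 CPM in vehicle (648 to 682). The intervals of Cdc20 did not overlap, though the log2 ratio was -0.09.

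Cdk1, the mitotic kinase itself, was at 657 CPM in cisplatin (639 to 674) and 628 CPM in vehicle (612 to 645). Ccnb2, which encodes cyclin B2, was at 301 CPM in cisplatin and 421 CPM in vehicle, a log2 ratio of -0.48. Ccnb1 ran the other way, at 533 CPM in cisplatin (518 to 549) and 440 CPM in vehicle (426 to 454), a log2 ratio of 0.28. The 2 B cyclins thus differed in direction. Nusap1, a microtubule-binding spindle protein, was at 674 CPM in cisplatin and 546 CPM in vehicle, the highest ratio of the rule at 0.30. Tpx2, which activates Aurora A on the spindle, was at 318 CPM in cisplatin and 359 CPM in vehicle, and Birc5 (survivin) at 305 and 354 CPM. Cdk1, Nusap1 and Ccnb1 were thus higher in cisplatin and the other 8 lower, though with TMM scaling of the libraries the log2 ratios of Cdc20 (0.07) and Ube2c (0.10) were above 0.

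**Figure D2:**
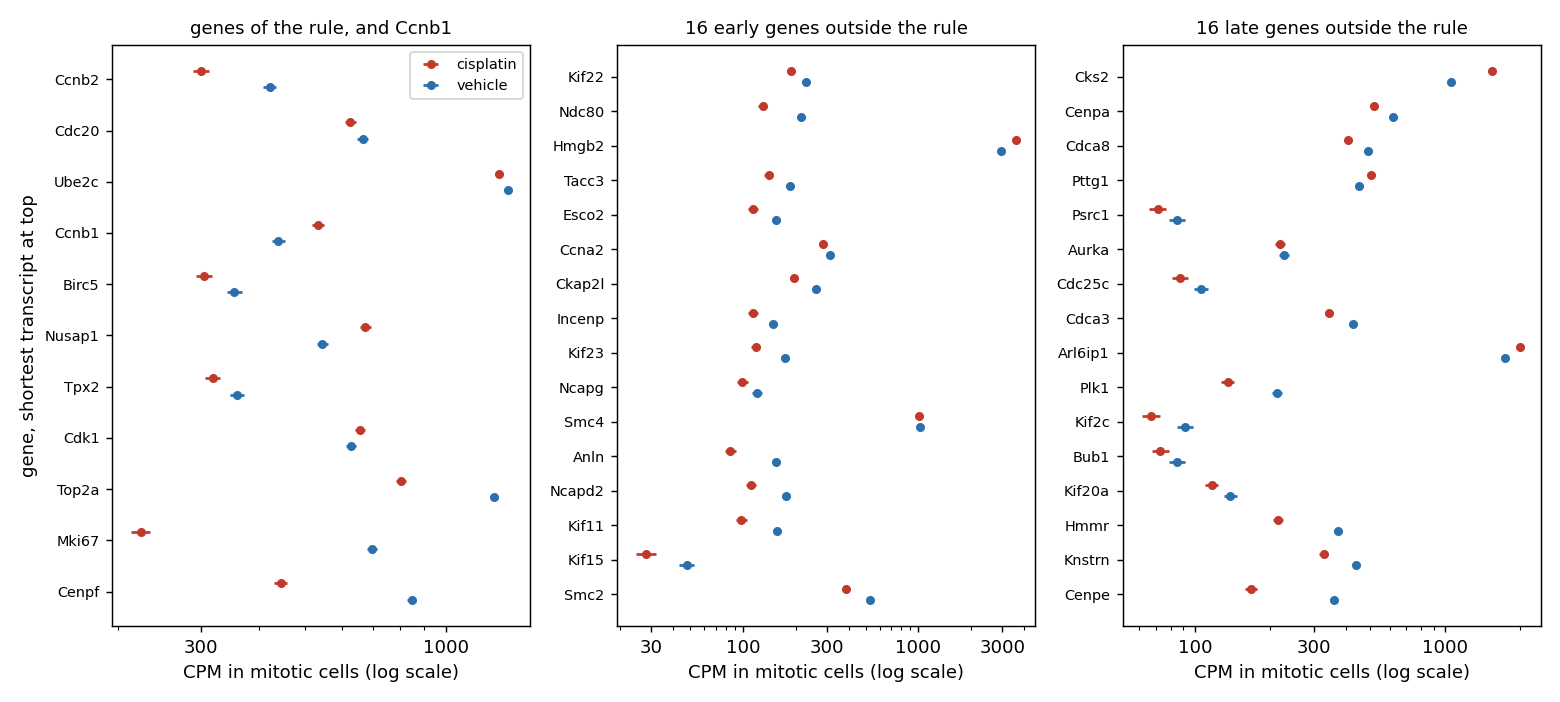
CPM in mitotic cells (x axes, log scale) of the 10 rule genes with Ccnb1 and of 16 early and 16 late genes outside the rule (y axes, shortest transcript at the top), in cisplatin and vehicle, with exact 95% Poisson intervals as bars. The widest gaps in the first panel are at the bottom, where Mki67 is at 223 CPM in cisplatin and 697 CPM in vehicle.

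Most promoters of these genes hold a sequence that the rule did not use. Genes of this programme are repressed outside G2 and M through the cell cycle genes homology region (CHR), bound by the DREAM complex and by MuvB with B-MYB and FOXM1, often beside CCAAT boxes bound by NF-Y. The windows below, from RefSeq on GRCm38.p6, run from 120 bases before to 20 after the transcription start on the minus strand. They are shown for the 4 genes that define the early and late split and for Ccnb2. Capitals mark TTTGAA or its other strand TTCAAA (the CHR) and CCAAT or its other strand ATTGG.
Top2a, chr11:99024170-99024309: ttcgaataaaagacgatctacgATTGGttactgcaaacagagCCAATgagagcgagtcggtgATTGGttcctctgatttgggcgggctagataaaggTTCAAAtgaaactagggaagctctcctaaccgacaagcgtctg
Cenpf, chr1:189688067-189688206: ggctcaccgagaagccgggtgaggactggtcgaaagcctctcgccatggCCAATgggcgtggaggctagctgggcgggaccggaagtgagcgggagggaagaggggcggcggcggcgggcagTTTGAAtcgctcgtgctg
Cdc20, chr4:118437324-118437463: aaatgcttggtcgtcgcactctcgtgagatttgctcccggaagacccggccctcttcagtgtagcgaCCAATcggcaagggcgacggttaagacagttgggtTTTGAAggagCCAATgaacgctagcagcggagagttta
Ccnb1, chr13:100786467-100786606: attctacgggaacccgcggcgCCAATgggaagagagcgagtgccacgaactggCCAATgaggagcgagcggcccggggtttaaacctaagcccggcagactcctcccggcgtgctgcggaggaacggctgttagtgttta
Ccnb2, chr9:70421535-70421674: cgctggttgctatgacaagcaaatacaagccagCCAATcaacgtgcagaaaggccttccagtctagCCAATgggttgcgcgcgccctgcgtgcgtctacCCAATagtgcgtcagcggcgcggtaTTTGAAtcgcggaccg
Ccnb1, alone of these, held neither TTTGAA nor TTCAAA in the window. Other forms of the CHR were not searched, so Ccnb1 is not shown to lack one. Cdc20, Ccnb2 and Cenpf carry the CHR in the orientation TTTGAA and Top2a as TTCAAA.

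Over windows of 250 bases before to 50 after a start, TTTGAA on either strand stood in 7 of the 9 windows of rule genes (9 of 10 genes matched). It stood in 17.9% of all 32851 windows of that length and in 11.4% of the 11404 windows of genes measured in both libraries. CCAAT on either strand was also in 7 of the 9, against 37.4% of all windows. Near the start, from 100 before to 50 after, TTTGAA was in 12 of 14 windows of early genes and 7 of 17 windows of late genes, against 8.01% of all windows. Over the full windows CCAAT was in 10 of the 14 early and 14 of the 17 late ones. A match describes letters and not a bound site.

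The late share of the 4 genes was higher in cisplatin. Cdc20 and Ccnb1 gave 48.2% of the UMIs of Cdc20, Ccnb1, Top2a and Cenpf in cisplatin (47.5 to 48.9%; 9838 of 20416 UMIs) and 34.3% in vehicle (33.7 to 34.9%; 9596 of 27979 UMIs). The early pair summed to 1247 CPM in cisplatin and 2116 CPM in vehicle, while the late pair summed to 1159 and 1105 CPM. The difference in share therefore lay in Top2a and Cenpf. A cell was called late-weighted when its Cdc20 and Ccnb1 UMIs outnumbered its Top2a and Cenpf UMIs. There were 391 late-weighted cells in cisplatin (38.3% of mitotic cells; 35.3 to 41.4%) and 119 in vehicle (15.2%; 12.7 to 17.9%). Early-weighted cells numbered 586 in cisplatin and 654 in vehicle, and 44 and 12 were tied or without such UMIs.

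This split rests on few UMIs per cell. The 4 genes gave a median of 17 UMIs in a cisplatin cell and 31 in a vehicle cell, and 275 cisplatin cells (26.9%) and 100 vehicle cells (12.7%) lay within 2 UMIs of a tie. With each cell thinned to 10 UMIs of the 4 genes, 33.8% of 791 cisplatin and 19.3% of 632 vehicle cells were late-weighted. The median late share of a cell was 44.0% in cisplatin (quartiles 29.1 and 61.1%) and 30% in vehicle (quartiles 17.9 and 41.7%).

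The summed UMIs of the wider lists did not show this difference. The 16 late genes outside the rule gave 50.5% of the UMIs of the 16 early and 16 late genes in cisplatin (50.2 to 50.8%) and 50.3% in vehicle (50 to 50.6%). By these 32 genes, 46.0% of cisplatin and 50.7% of vehicle mitotic cells were late-weighted, so the order of the libraries turned round. Among their members with transcripts under 3000 bases the late share was 57.1% in cisplatin and 57.7% in vehicle. Among those of 3000 bases or more it was 28.7% in cisplatin and 33.4% in vehicle. Hmgb2, an early gene under 3000 bases, held 3566 of the 6664 CPM of the early list in cisplatin and 2936 of 6818 in vehicle. Arl6ip1, the largest late gene, held 1988 of 6787 CPM in cisplatin and 1735 of 6901 in vehicle. The early sums thus rest in large part on 1 gene, higher in cisplatin, and shares without it were not computed. The median log2 ratio was -0.42 for the early list and -0.26 for the late list.

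**Figure D3:**
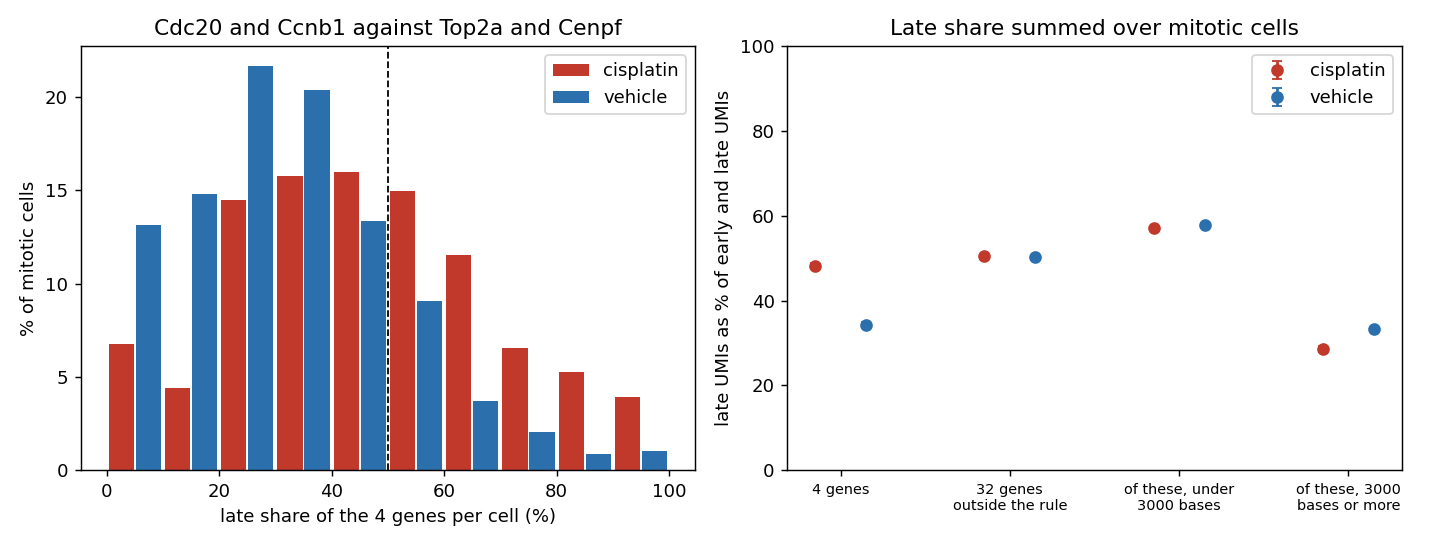
Left, share of mitotic cells (y axis, percent) by the late share of the 4 genes in the cell (x axis, bins of 10%), with 50% dashed. Right, late share of summed UMIs (y axis, percent, with exact 95% intervals, mostly smaller than the points) for the 4 genes, the 32 genes and the 32 genes split at 3000 bases. Only the first pair of points on the right lies far apart with cisplatin higher, at 48.2% in cisplatin and 34.3% in vehicle.

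Transcript length moved with the ratio across all genes. The median log2 ratio over 11524 measured genes (at least 50 UMIs over both libraries) was -0.16 in CPM, -0.01 with TMM scaling and 0.00 with median-of-ratios size factors. It was 0.11 in genes with transcripts under 1000 bases and -0.45 in genes of 6000 bases or more, falling through each bin between. Spearman's rho of ratio and length was -0.36 across these genes, which share 2 libraries and are not replicates. The other kept cells showed a rho of -0.38. Top2a and Cenpf have transcripts of 5221 and 11130 bases, and Cdc20 and Ccnb1 of 1793 and 2489 bases. With the trend on length removed, the log2 ratio was -1.15 for Mki67, -0.42 for Cenpf, -0.32 for Top2a, -0.05 for Cdc20 and 0.37 for Ccnb1. Mki67 was then the single gene of the rule past 1.5-fold.

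**Figure D4:**
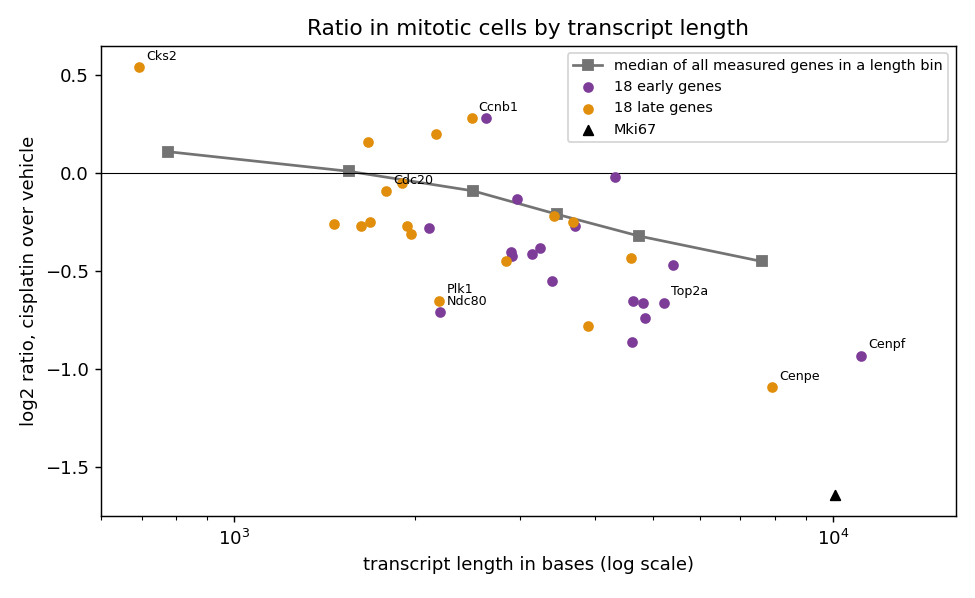
Log2 ratio cisplatin over vehicle in mitotic cells (y axis) against transcript length (x axis, bases, log scale) for 18 early genes, 18 late genes and Mki67. Squares give the median of all measured genes in a length bin, which goes down to -0.45 at 6000 bases or more, and Mki67 lies below the line at -1.64.

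Of all measured genes, 625 were higher (5.42%) and 2312 lower (20.1%) in cisplatin mitotic cells by 1.5-fold. Scaled by TMM, 1123 were higher and 1465 lower, and by size factors 1177 and 1429. With each ratio taken relative to the all-gene median 1028 were higher (8.92%). Removing the length trend gave 976 higher (8.48%) and 916 lower (7.96%). For this reason the median of a list is set against the all-gene median. All members of the 2 lists of 16 passed the floor of 50 UMIs.

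Of the 16 early genes outside the rule, 0 were higher and 5 lower, against 5.42% and 20.1% of all genes. The list's median lay 0.25 under the all-gene median. Anln, an actin-binding protein of the cleavage furrow, was at 84.9 CPM in cisplatin (78.8 to 91.3) and 155 CPM in vehicle (147 to 163), the lowest ratio of the list at -0.86. Ndc80, which binds kinetochores to microtubules, was at 130 CPM in cisplatin (123 to 138) and 214 CPM in vehicle (205 to 224). Kif11, the motor that pushes spindle poles apart, was at 98.2 CPM in cisplatin and 156 CPM in vehicle, and Kif15, a motor that can stand in for it, at 28.3 and 48.0 CPM. The fifth, the condensin subunit Ncapd2, was at 112 CPM in cisplatin and 176 CPM in vehicle. Anln and Kif23 act in cytokinesis though their RNAs were listed as early. With the length trend removed Ndc80, whose transcript has 2201 bases, was the 1 member still past 1.5-fold, at -0.64.

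The other 11 early genes lay within 1.5-fold. Hmgb2, a chromatin protein, was the highest at 3566 CPM in cisplatin (3526 to 3606) and 2936 CPM in vehicle (2901 to 2973), a log2 ratio of 0.28. The condensin core subunit Smc4 was at 1001 CPM in cisplatin and 1014 CPM in vehicle, within counting error, and its partner Smc2 at 385 and 533 CPM. Ccna2, which encodes cyclin A2, was at 287 CPM in cisplatin and 314 CPM in vehicle. Esco2, the cohesin acetyltransferase, was at 115 CPM in cisplatin and 154 CPM in vehicle, and Incenp, the scaffold of the chromosomal passenger complex, at 114 and 149 CPM. With TMM scaling the log2 ratio of Ccna2 was 0.03 and that of Smc4 0.14, so their direction depends on the scaling.

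Of the 16 late genes, 0 were higher and 3 lower, a share of lower genes near the 20.1% of all genes. The list's median lay 0.10 under the all-gene median. Cenpe (chromosome 3, 135212537 to 135273611), a kinetochore motor that carries chromosomes to the spindle middle, was at 168 CPM in cisplatin (159 to 177) and 359 CPM in vehicle (346 to 372), a log2 ratio of -1.09. Hmmr, a spindle pole protein, was at 216 CPM in cisplatin (206 to 226) and 372 CPM in vehicle (359 to 385), a ratio of -0.78. Plk1, the polo kinase, was at 135 CPM in cisplatin (128 to 143) and 213 CPM in vehicle (203 to 223), a ratio of -0.65. With the length trend removed Cenpe, with a transcript of 7910 bases, stayed past 1.5-fold at -0.66.

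Among the late genes, 3 were above vehicle without reaching 1.5-fold. Cks2, a small CDK-binding subunit with a transcript of 692 bases, was at 1541 CPM in cisplatin (1515 to 1568) and 1059 CPM in vehicle (1038 to 1081), a log2 ratio of 0.54. Arl6ip1, an endoplasmic reticulum protein, was at 1988 CPM in cisplatin and 1735 CPM in vehicle, and Pttg1 (securin) at 507 and 453 CPM. Cenpa, the centromeric histone H3, was at 519 CPM in cisplatin and 620 CPM in vehicle, and the Aurora A gene Aurka at 219 and 227 CPM, a ratio that was above 0 with TMM scaling (0.11). The others lay between -0.45 and -0.22 on the log2 scale.

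Cells binned by their late share in steps of 0 to 20, 20 to 40, 40 to 60 and 60 to 100% held 114, 309, 316 and 279 cisplatin cells and 219, 330, 176 and 60 vehicle cells. The bins use rule genes, so the levels along them are a description. They rest in part on Top2a and Cenpf, which were lower in cisplatin. A bin therefore need not hold cells of the same stage in both libraries. Summed over 25 S phase genes, cisplatin cells were at 4110, 3726, 3154 and 2397 CPM from low to high late share, and vehicle cells at 4114, 2664, 1746 and 1372 CPM. The libraries were alike in the lowest bin and vehicle was lower in the other 3. In the other kept cells this sum was at 2226.5 CPM in cisplatin and 2488 CPM in vehicle, below the lowest bin. The 16 late genes summed to 4213, 6174, 7346 and 7688 CPM in cisplatin and to 3915, 7611, 8649 and 6589 CPM in vehicle, so that the last bin was below the one before it in vehicle but not in cisplatin.

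Single genes parted in that last bin. Cdk1 was at 581 CPM in cisplatin and 158 CPM in vehicle there, against 738 and 711 CPM in the bin before. Nusap1 was at 560 CPM in cisplatin and 124 CPM in vehicle, and Ube2c at 1477 and 625 CPM. Arl6ip1 was at 2123 CPM in cisplatin and 659 CPM in vehicle. Cenpa, Ccnb2 and Knstrn, a kinetochore-associated spindle gene, were instead at their highest in the last bin in both libraries, with Cenpa at 671 CPM in cisplatin and 903 CPM in vehicle. With each cell thinned to 10 UMIs of the 4 genes, the last bin (7 to 10 late UMIs; 174 cisplatin and 58 vehicle cells) held Cdk1 at 577 CPM in cisplatin and 400 CPM in vehicle. Nusap1 was then at 596 CPM in cisplatin and 304 CPM in vehicle, and Ube2c at 1612 and 1316 CPM. The gaps kept their direction and were smaller, and the S phase sum stayed apart at 2144 CPM in cisplatin and 1395 CPM in vehicle.

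**Figure D5:**
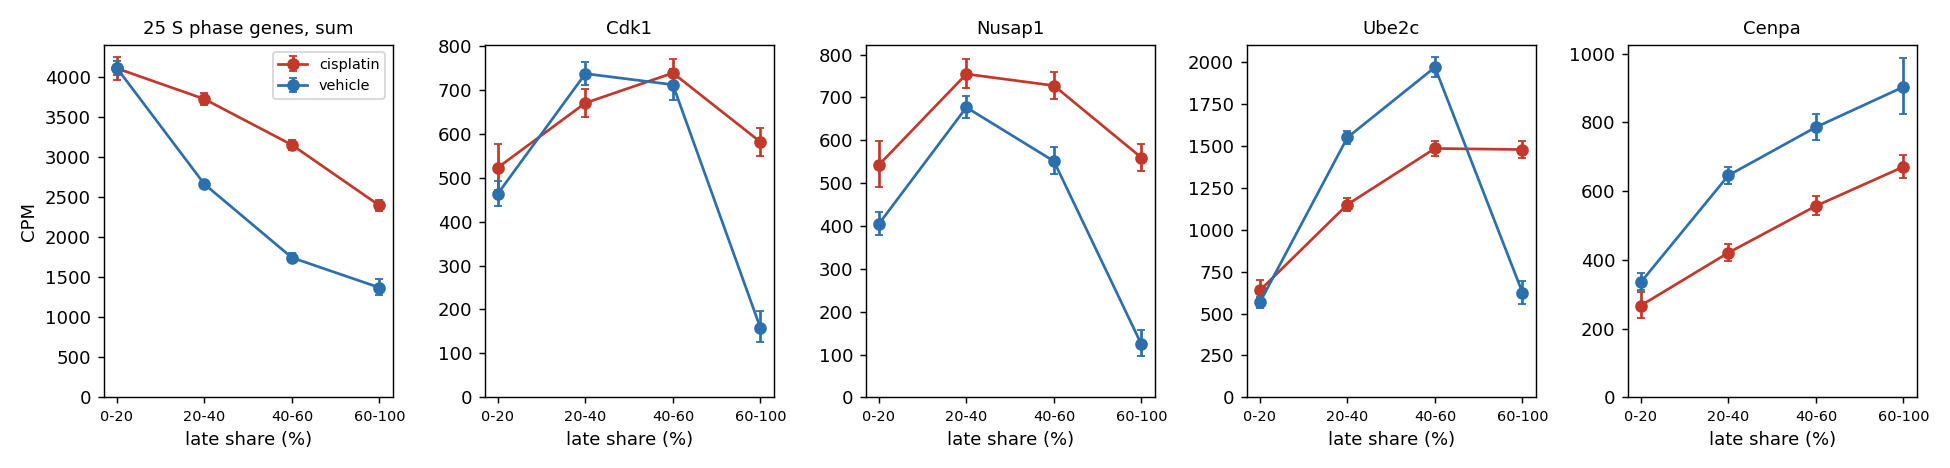
CPM (y axes, bars are exact 95% Poisson intervals) of the summed S phase genes and of Cdk1, Nusap1, Ube2c and Cenpa in mitotic cells, by bin of the late share of the 4 genes in the cell (x axes, percent). In the last bin Cdk1 is at 581 CPM in cisplatin and 158 CPM in vehicle, while Cenpa reaches its highest level in both libraries.

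Within each library, late-weighted over early-weighted cells were compared without a test. In cisplatin 2.86% of 9829 measured genes were higher and 5.09% lower by 1.5-fold, and in vehicle 4.41% and 14.0% of 10404. Of 25 S phase genes, 0 were higher and 8 lower in cisplatin, and 0 were higher and 23 lower in vehicle. The number of late-weighted cells (391 in cisplatin, 119 in vehicle) differed beside these counts. Rrm2, a subunit of ribonucleotide reductase, was at 202 CPM in late-weighted and 457 CPM in early-weighted cells of cisplatin, and at 63.6 and 287 CPM in vehicle. E2f7, a repressor of E2F targets, had a log2 ratio of late-weighted over early-weighted cells of -0.99 in cisplatin and -2.72 in vehicle. The thymidine kinase gene Tk1 and Mxd3, a MAX partner, were low in late-weighted cells too, with log2 ratios of -0.90 and -1.07 in cisplatin and -2.05 and -2.63 in vehicle.

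Fewer genes were high in late-weighted cells. Pif1, a DNA helicase, was at 27.4 CPM in late-weighted and 12.9 CPM in early-weighted cells of cisplatin, and at 60.2 and 33.1 CPM in vehicle. Ccna1, a second A-type cyclin, was at 23.4 and 11.9 CPM in cisplatin and 34.4 and 16.5 CPM in vehicle. Hbp1, a transcription factor that restrains the cycle, was at 86.4 and 35.2 CPM in cisplatin and 70.5 and 43.2 CPM in vehicle. These 3 genes were named for a high ratio. Of 9647 genes measured in both libraries, 18 in cisplatin and 33 in vehicle were at least 2-fold higher in late-weighted cells. They shared 1, which is 5.56% of the cisplatin and 3.03% of the vehicle genes. The shared gene was Cdc20, which itself defines late-weighted cells, so this overlap follows from the split.

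Cisplatin over vehicle was also taken within each of these 2 kinds of cell (late-weighted and early-weighted). The split rests in part on Top2a and Cenpf, which were lower in cisplatin. A late-weighted or early-weighted cell therefore need not be of the same stage in both libraries, and these values are a description. In late-weighted cells 9.11% of 8385 measured genes were higher and 15.7% lower by 1.5-fold, and in early-weighted cells 5.28% and 20.5% of 11017. Of the S phase genes, 18 of 24 measured were higher and 0 lower in late-weighted cells, and 3 of 25 were higher and 1 lower in early-weighted cells. The list's median log2 ratio was 0.98 in late-weighted and 0.21 in early-weighted cells, against -0.08 and -0.17 over all genes. Rrm2 had a ratio of 1.65 in late-weighted and 0.67 in early-weighted cells, E2f7 1.28 and -0.46, and Gins2 1.15 and 0.73. Among mitotic genes, Nusap1 was at 618 CPM in cisplatin and 258 CPM in vehicle late-weighted cells (1.26), and at 718 and 595 CPM in early-weighted cells (0.27). Cdk1 was at 638 CPM in cisplatin and 389 CPM in vehicle late-weighted cells, and at 669 CPM in the early-weighted cells of both.

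Interferon genes differed between the 2 kinds of cell. Of 17, 2 were higher and 5 lower in late-weighted cells, against 9.11% and 15.7% of all genes. In early-weighted cells 13 were higher and 0 lower, against 5.28% and 20.5%. The list's median log2 ratio was -0.34 in late-weighted and 0.71 in early-weighted cells. Late-weighted vehicle cells numbered 119, and some of these RNAs lay in few cells. Ifit3 had UMIs in 34 of 1021 cisplatin and 8 of 785 vehicle mitotic cells. Ifit1 had a log2 ratio of 0.19 in late-weighted and 1.48 in early-weighted cells. Mki67 (-1.14 and -1.57), Cenpe (-0.97 and -1.18), Hist1h1e (-2.12 and -3.17) and Hes1 (1.48 and 1.76) kept one direction in both. All these values come from the same 2 libraries, and the differences between late-weighted and early-weighted cells were not tested.

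By role, 18 of the 27 lists had more members lower than higher in cisplatin, 11 with size factors and 8 with the length trend removed. Of all measured genes 20.1% were lower and 5.42% higher, so this lean is not particular to the lists. The member counts here and below stand against these shares. Lists share members, and the 27 include the rule genes and the early pair, which chose or split the cells. Of 16 cyclins and CDK1 regulators, 0 were higher and 4 lower, and the list's median lay 0.02 under the all-gene median. Cdc25b, a phosphatase that switches CDK1 on, was at 106 CPM in cisplatin and 191 CPM in vehicle, and Wee1, the kinase that holds CDK1 off, at 35.6 and 64.7 CPM. Foxm1, the transcription factor of the G2 and M programme, was at 24.2 CPM in cisplatin and 43.5 CPM in vehicle. Of 11 mitotic kinases, 0 were higher and 1, Plk1, was lower, and their median lay 0.06 under the all-gene median. Of the 11 spindle checkpoint genes, 0 passed 1.5-fold either way (median 0.02 under), with Mad2l1, an inhibitor of CDC20, at 236 CPM in cisplatin and 174 CPM in vehicle.

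Of 12 kinesins, 0 were higher and 4 lower, and their median lay 0.20 under the all-gene median. Kif14 was at 14.4 CPM in cisplatin (11.9 to 17.2) and 38.9 CPM in vehicle (34.9 to 43.3), and the chromokinesin Kif4 at 64.9 and 112 CPM. Of 22 spindle and cytokinesis genes, 0 were higher and 5 lower, a share of lower genes near the 20.1% of all genes. Their median lay 0.25 under the all-gene median. Aspm, a spindle pole protein with a transcript of 9867 bases, was at 38.8 CPM in cisplatin (34.7 to 43.2) and 118 CPM in vehicle (111 to 126), a ratio of -1.59 that was -1.10 with the length trend removed. Aspm was the single member of that list past 1.5-fold after that removal.

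Of 21 condensin and cohesin genes, 0 were higher and 7 lower, and their median lay 0.30 under the all-gene median, and 0 passed either way once the length trend was removed. The shugoshin Sgol2a, which protects centromeric cohesion, was at 86.4 CPM in cisplatin and 162 CPM in vehicle, and the cohesin subunit Smc1a at 143 and 256 CPM. Of 21 centromere and kinetochore genes, 1 was higher and 5 lower, near the 5.42% and 20.1% of all genes. The list median (-0.04 in CPM) was 0.12 over the all-gene median, so its sign depends on the scaling. Cenpk, of the inner kinetochore, was the higher one at 124 CPM in cisplatin (117 to 132) and 75.4 CPM in vehicle (69.7 to 81.4). The scaffold gene Casc5 was at 130 CPM in cisplatin and 222 CPM in vehicle. Of 17 genes of the anaphase-promoting complex and its partners, 1 was higher (Anapc10, at 53.9 CPM in cisplatin and 31.1 CPM in vehicle) and 3 lower. These counts too were near the shares of all genes. The median of the 17 lay 0.07 over the all-gene median (-0.09 in CPM). The core subunit Cdc27 was lowest at 37.5 CPM in cisplatin and 73.2 CPM in vehicle. The 4 genes of the chromosomal passenger complex lay within 1.5-fold, with a median 0.10 under.

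S phase genes mostly lay within 1.5-fold. Of 25, 2 were higher and 1 lower, against 5.42% and 20.1% of all genes, and their median lay 0.37 over the all-gene median (0.21 in CPM). Gins2, of the replicative helicase, was at 70.8 CPM in cisplatin (65.3 to 76.7) and 42.7 CPM in vehicle (38.5 to 47.3). Slbp, the protein that binds the stem-loop of histone messages, was at 464 CPM in cisplatin (450 to 479) and 290 CPM in vehicle (279 to 302). Ccne1, which encodes cyclin E1, was the lower one at 23.0 CPM in cisplatin and 54.4 CPM in vehicle. Relative to the median of all genes, 5 of the 25 were higher.

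Replication-dependent histone genes were the lowest group. Of 22 listed, 17 passed the floor, and of these 0 were higher and 14 lower, and their median lay 1.85 under the all-gene median. With the length trend removed 13 were lower. Hist1h1e (chromosome 13, 23620629 to 23622558), a linker histone, was at 16.3 CPM in cisplatin (13.7 to 19.2) and 182 CPM in vehicle (173 to 191), a log2 ratio of -3.41. The H2A gene Hist1h2ae was at 44.0 CPM in cisplatin (39.6 to 48.7) and 376 CPM in vehicle (363 to 389), and the linker histone Hist1h1b at 22.6 and 191 CPM. The whole list summed to 1222 CPM in cisplatin and 2509 CPM in vehicle. Along the late share this sum was 859, 1009, 1232 and 1607 CPM in cisplatin and 2115, 2959, 2268 and 1871 CPM in vehicle. The gap of the sum was thus narrowest in the last bin. The rise of the sum in cisplatin does not describe most members. In late-weighted over early-weighted cisplatin cells, 2 of 9 measured were higher and 4 lower, against 2.86% and 5.09% of all genes. Their median log2 ratio was -0.48 in cisplatin. In vehicle 2 of 15 were higher and 12 lower, against 4.41% and 14.0%. These messages mostly end in a stem-loop and not a poly(A) tail, so oligo-dT capture misses many, and near-identical copies can share reads. Of 9 variant histones, which carry tails, 0 were higher and 1, H1f0, was lower, at 444 CPM in cisplatin and 733 CPM in vehicle, and their median lay 0.12 over the all-gene median.

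Checkpoint and damage genes differed in both directions. Of 21, 3 were higher and 7 lower, and their median lay 0.19 under the all-gene median. Rprm (chromosome 2, 54084093 to 54085552), the gene of Reprimo, a mediator of arrest in G2, had 425 UMIs in cisplatin mitotic cells (50.1 CPM; 45.4 to 55.1) and 7 in vehicle mitotic cells (0.806 CPM; 0.324 to 1.66). It was the highest ratio of all named genes at 4.82, and in the other kept cells it was at 77.7 CPM in cisplatin and 1.33 CPM in vehicle. Gadd45g, a growth arrest gene, was at 308 CPM in cisplatin and 189 CPM in vehicle. The lower ones included Fanca at 7.07 CPM in cisplatin and 15.2 CPM in vehicle and Brca2 at 27.8 and 48.2 CPM. Brca2 and 4 of the others lower (Atm, Atr, Clspn and Rad50) have transcripts over 5000 bases, and with the length trend removed 2 of the 21 were lower.

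Of 18 measured p53 targets, 2 were higher and 1 lower, and their median lay 0.28 over the all-gene median. Plk2 was at 56.0 CPM in cisplatin and 30.9 CPM in vehicle, and Eda2r at 4.48 and 1.73 CPM. Btg2, an antiproliferative gene, was at 1260 CPM in cisplatin and 959 CPM in vehicle. Of 21 measured G1 regulators, 2 were higher and 5 lower, and their median lay 0.01 under. Cdkn1c, which encodes the CDK inhibitor p57, was at 121 CPM in cisplatin (114 to 129) and 60.8 CPM in vehicle (55.7 to 66.2). Cdkn2a, of the p16 and ARF locus, was at 91.9 CPM in cisplatin (85.6 to 98.6) and 227 CPM in vehicle (217 to 237). Cdkn2a transcripts are short (895 bases), and its ratio was -1.30 as measured and -1.39 with the trend removed.

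Of 18 measured apoptosis genes, 1 was higher and 4 lower, and their median of -0.12 in CPM lay 0.05 over the all-gene median. Bcl2l1, an inhibitor of cell death, was at 68.2 CPM in cisplatin and 45.1 CPM in vehicle, and Bcl2 at 9.07 and 16.5 CPM. Of 13 stress response genes, 1 was higher and 2 lower (median 0.10 over), with Atf4, a regulator of the integrated stress response, at 295 CPM in cisplatin and 450 CPM in vehicle. Of 10 genes of the MYC network, 1 was higher and 1 lower (median 0.02 over), with Myc at 16.3 CPM in cisplatin and 10.7 CPM in vehicle.

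Interferon-stimulated and immediate early genes were higher in part in cisplatin mitotic cells. Of 17 interferon genes, 8 were higher and 1 lower, and their median lay 0.68 over the all-gene median. Ifit1 was at 107 CPM in cisplatin (100 to 114) and 43.7 CPM in vehicle (39.5 to 48.4), the ubiquitin-like Isg15 at 99.5 and 41.9 CPM, and Rsad2 (viperin) at 38.8 and 15.1 CPM. Ifit3 was at 19.9 CPM in cisplatin and 1.73 CPM in vehicle, but 10 cells held 69.2% of its 169 UMIs in cisplatin. Of 12 immediate early genes, 5 were higher and 1 lower, and their median lay 0.60 over it. The phosphatase gene Dusp1 was at 764 CPM in cisplatin and 352 CPM in vehicle, and Egr1 at 1007 and 654 CPM, while Fosb was the lower one at 68.8 and 162 CPM.

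Among 23 measured neuroendocrine genes, 4 were higher and 2 lower, and their median lay 0.24 over the all-gene median. Resp18, of secretory granules, was at 2668 CPM in cisplatin (2633 to 2703) and 1239 CPM in vehicle (1215 to 1262). Insm1, a neuroendocrine transcription factor, was at 831 CPM in cisplatin and 470 CPM in vehicle. Of 11 measured Notch pathway genes, 2 were higher and 4 lower, and their median lay 0.13 under. The Notch target Hes1 was at 121 CPM in cisplatin (114 to 129) and 39.7 CPM in vehicle (35.6 to 44.1), and the ligand gene Jag1 at 35.8 and 13.0 CPM. Lower were the ligand genes Dll4, at 4.83 CPM in cisplatin and 16.5 CPM in vehicle, and Jag2, at 3.30 and 9.67 CPM. Along the late share Hes1 stayed above vehicle in each bin, at 91.6 CPM in cisplatin and 30.5 CPM in vehicle in the last.

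Several of the genes with the highest and lowest ratios are on none of the mitotic lists. Plppr1, a membrane protein of neurons, was at 117 CPM in cisplatin (110 to 124) and 8.63 CPM in vehicle (6.79 to 10.8). Ceacam10 was at 49.5 CPM in cisplatin and 2.42 CPM in vehicle, and the noncoding RNA Meg3 at 46.4 and 3.34 CPM. Meg3 had UMIs in 160 of 1021 cisplatin and 14 of 785 vehicle mitotic cells, and 10 cells held 33.5% of its cisplatin UMIs. Klk1, a secreted protease with close paralogs, was at 290 CPM in cisplatin and 26.4 CPM in vehicle, with 50.2% of its cisplatin UMIs in 10 cells. Zfp367, a zinc finger gene, was at 178 CPM in cisplatin and 45.0 CPM in vehicle. At the low end, Igf2 was at 21.9 CPM in cisplatin (18.9 to 25.3) and 143 CPM in vehicle (135 to 151), and the ligand gene Nrg2 at 8.13 and 34.8 CPM. Dcn, from the fibroblast marker set, was at 12.7 CPM in cisplatin and 63.0 CPM in vehicle, while Col1a1, Col1a2 and Lum were at 0 in vehicle mitotic cells. For Dcn, 10 cells held 55.6% of the UMIs in cisplatin and 38.8% in vehicle.

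In the other kept cells of the libraries, 5.03% of 12585 measured genes were higher and 21.4% lower by 1.5-fold. Both comparisons use the same 2 libraries, so their values are given side by side. Mki67 had a log2 ratio of -1.64 in mitotic and -1.39 in other kept cells, and Hes1 had 1.58 and 1.53. Ndc80 was at -0.71 in mitotic and -0.05 in other kept cells, Plk1 at -0.65 and -0.11, and Anln at -0.86 and -0.07, where their levels in other cells were 3.86 to 11.1 CPM in both libraries. Hist1h2ae was at -3.07 in mitotic and -1.55 in other kept cells. Gins2 (0.72 and -0.33), Cdkn1c (0.98 and -0.06) and Timeless, a replication fork gene (0.03 and -1.02), were among the 8 genes with the largest differences upwards. The differences between mitotic and other cells were not tested.

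Most genes that were higher in mitotic cells were shared by the libraries, and most that were lower were not. Of 11637 genes measured in both, 541 were at least 2-fold higher in mitotic than in other kept cells of cisplatin and 519 in vehicle. They shared 429, which is 79.3% of the cisplatin and 82.7% of the vehicle genes, and 139 of these stand on 1 of the lists. At least 2-fold lower were 183 genes in cisplatin and 132 in vehicle, and the 61 shared are 33.3% of the cisplatin and 46.2% of the vehicle genes. All 16 early and all 16 late genes were 1.5-fold higher in mitotic cells of both libraries, against 11.3% of measured genes in cisplatin and 10.4% in vehicle. The median log2 ratio of the late list was 4.37 in cisplatin and 4.66 in vehicle, and that of the early list 3.65 and 4.05. Of 25 S phase genes, 12 were higher and 1 lower in cisplatin, and 7 were higher and 4 lower in vehicle. Their median log2 ratio was 0.56 in cisplatin and -0.10 in vehicle, against 0.02 and -0.00 over all genes. The early and late genes move with the rule, so the counts are a description. In the 385 promoter windows of the shared genes, TTTGAA was in 36.6% and CCAAT in 60%, against 11.4% and 37.7% in the windows of all genes measured in both libraries.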

How the data were processed

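The files hold deposited 10x matrices of 28692 genes, and their values are UMI counts that the authors did not normalize, judged from the file headers and the whole-number values. The submitters' processing notes name Cell Ranger 2.0.2 and the mm10 build without their roles. From these counts, cells were filtered and chosen by the rule given above; no barcode was removed as a doublet, no caller was run, and leaving out barcodes above the 95th percentile of UMIs was an alternative. Each gene's UMIs were added up across a class of cells, scaled to CPM, and compared as log2 ratios with 1 CPM added, for genes with at least 50 UMIs over both libraries. A gene counted as higher or lower past 1.5-fold. Transcript lengths are those of the longest transcript of a gene in GENCODE M21, whose coordinates (GRCm38) are printed; 28339 identifiers matched. The length trend was a lowess curve (fraction 0.3). The 27 lists, the markers and the rule were chosen with earlier results of these data known. Named genes are members of the rule and of the early and late lists, up to 4 per list by ratio, the 12 highest and 12 lowest ratios at 20 CPM, the 8 highest and lowest differences from other cells, the 10 highest and lowest late over early, and the floxed genes; some of these genes are not reported here. Atf4, Atm, Atr, Bcl2, Brca2, Cdkn2a, Egr1, Gadd45g, Isg15, Jag2, Rad50 and others past 1.5-fold were in part named after their values were seen. Alternatives covered the threshold, filters, thinning, floor, fold, added CPM, scaling and genes used. Python 3.11.15, numpy 2.4.6, pandas 2.3.3, scipy 1.17.1, statsmodels 0.14.6, matplotlib 3.10.9, and R 4.3.3 with edgeR 4.0.16 (TMM factors) and DESeq2 1.42.0 (size factors) were used. The steps were tested on simulated data. Since there is 1 library per group, no p-value was computed.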

Additional observations from a re-analysis of the deposited data

Results flagged for a closer look

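Scgb1a1, the secretoglobin of club cells, pointed in opposite ways in the 2 classes of cells. In mitotic cells it was at 519 CPM in cisplatin and 115 CPM in vehicle, a log2 ratio of 2.16, and in the other kept cells at 471 CPM in cisplatin and 961 CPM in vehicle, a log2 ratio of -1.03. The difference between the classes was not tested, and the spread of Scgb1a1 UMIs over the other kept cells was not examined. In mitotic cells its 4402 UMIs of cisplatin included 748 in 1 cell, and 10 cells held 31.6% of them, while the highest of the vehicle cells had 58 of 1000 UMIs. The log2 ratio in mitotic cells was 2.06 with the endocrine cells kept and 2.09 without cells that had 3 markers of another cell type.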

How the results depend on the processing

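No paired analysis was possible because each group is 1 library. Of the 182 alternative values of the summary results, 134 stayed within counting error or 1.5 times. Those with another added CPM could not move, since the 1.5-fold calls use CPM with nothing added. Of the gene ratios 5762 stayed and 976 moved, and of the list medians 485 and 1. The mitotic share was 32.7% in cisplatin and 26.8% in vehicle at a threshold of 10 per 10000, and 19.3% in vehicle at 20; it was 31.9% in cisplatin with at least 1000 genes and at most 5% mitochondrial UMIs, 31.0% in cisplatin after thinning to 3000 UMIs, and 19.8% in vehicle without barcodes above the 95th percentile of UMIs. The late share of the 4 genes was 33.7% in vehicle at 10 per 10000, and 47.4% in cisplatin and 33.5% in vehicle after thinning. With the 32 genes it was 50.5% and 50.3%, and with those under 3000 bases 57.1% and 57.7%. In both of these, Hmgb2 holds a large part of the early UMIs. Late-weighted cells were 35.1% in cisplatin after thinning to 3000 UMIs, 33.8% in cisplatin and 19.3% in vehicle after thinning to 10 UMIs of the 4 genes, and 46.0% and 50.7% by the 32 genes, so that by the 32 genes, and in the late share under 3000 bases, the order of cisplatin and vehicle turned round. Genes higher and lower, 625 and 2312 in CPM, were 1123 and 1465 with TMM, 1177 and 1429 with size factors, 389 and 1355 at a floor of 200 UMIs, 2498 and 5029 with no floor, 216 and 644 at 2-fold, and 976 and 916 with the length trend removed. Lists with more members lower than higher were 11 with size factors, 8 at 2-fold and 8 with the length trend removed. Early genes lower were 3 at 10 per 10000, 2 with TMM, 2 with size factors, 0 at 2-fold and 1 with the length trend removed, and late genes lower were 1 at 2-fold and 1 with the length trend removed. Mitotic and other kept cells, which share both libraries, had 1841 genes past 1.5-fold the same way and 13 opposite ways; the same-way count was 1139 at a floor of 200, 3860 with no floor, 393 at 2-fold and 950 with the length trend removed. Early-weighted and late-weighted cells had 1022, and 489 after thinning, 333 at a floor of 200, 3051 with no floor and 208 at 2-fold. The cause of these shifts was not tested. The length trend, the 32 genes, the thinning to 10 UMIs and the marker filter were chosen after seeing the data, as were the settings for the early and late lists and for the comparisons with other cells. Depth limits the split of cells: a cell holds few UMIs of the 4 genes.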
